A study of Mus musculus with 6 samples.

Results

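The expression of 10 genes of the SRF, YAP and TEAD mechanosensing pathways was examined in CNN3 knockdown C2C12 cells. The genes were chosen by name (Srf, Yap1, Wwtr1, Tead1, Tead4, Ctgf, Cyr61, Ankrd1, Amotl2 and Lats2). All 10 are among the 11835 genes of the deposited data, where Ctgf and Cyr61 carry their newer symbols Ccn2 and Ccn1, and all 10 passed the filter on low values, as did 11593 genes in all. C2C12 is an established mouse myoblast line, and all 6 cultures were kept in DMEM with 2% horse serum to differentiate. One group of 3 libraries was transfected with NC siRNA (siNC) and the other group of 3 with CNN3 siRNA (siCNN3), so both groups carried an siRNA and neither was left untransfected. The labels call the cells mouse myotubes while the paper calls them differentiating myoblasts, and neither names the CNN3 siRNA of the sequenced cultures. In the paper's differentiation protocol the siRNA was given again before a late harvest, a schedule not tied by name to the sequenced cultures. The labels do not say whether replicates came from separate cultures, so p-values measure the spread between these libraries, which may be technical.

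SRF (serum response factor) is a transcription factor that binds the CArG box and turns on immediate early genes with ternary complex factors, and cytoskeletal and muscle genes with MRTF cofactors, which are released when actin monomers are used up. YAP and its paralog TAZ, the product of Wwtr1, are coactivators without a DNA-binding domain of their own that act mainly through the TEAD transcription factors, and the kinases LATS1 and LATS2 hold them in the cytoplasm by phosphorylation. Tension on the actin cytoskeleton moves both systems into the nucleus, a step that mRNA levels do not measure. CNN3 (calponin 3) is an actin-binding protein.

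Short stretches of promoter are shown because they hold letters of the DNA elements that TEAD factors and SRF are known to bind. They come from the RefSeq promoter sequences of GRCm38.p6, searched over the 250 bases before the annotated start, and were matched for 7 of the 10 genes, all except Tead1, Tead4 and Ctgf. The TEAD hexamer was searched as GGAATG and, for the other strand, CATTCC, and the CArG box by its name alone as its usual 10-base consensus, and no 2 matches shared bases. Matches are in capitals in stretches of 30 bases, read 5′ to 3′ on the strand of the gene.
Cyr61: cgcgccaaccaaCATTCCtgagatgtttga
Amotl2: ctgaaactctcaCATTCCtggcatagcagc
Ankrd1, distal: gtcactgccaaaGGAATGaccctctcacat
Ankrd1, proximal: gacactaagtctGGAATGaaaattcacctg
Yap1: cgggagtctgcaGGAATGtagcgacgcgca
Wwtr1: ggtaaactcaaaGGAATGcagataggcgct
Srf: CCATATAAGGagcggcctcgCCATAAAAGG

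The Cyr61 stretch lies at chr3:145650071-145650100 on the minus strand, with the hexamer 103 bases before the start. That of Amotl2 lies at chr9:102717727-102717756 on the plus strand, 65 bases before the RefSeq start but inside the span of the GENCODE transcript Amotl2-201. Those of Ankrd1 lie at chr19:36120037-36120066 and chr19:36119950-36119979 on the minus strand, 210 and 123 bases before the start. They are inside the GENCODE span of the gene but upstream of its listed transcript Ankrd1-201. The Yap1 stretch is at chr9:8004720-8004749 on the minus strand with the hexamer 141 bases before the start, and the Wwtr1 stretch at chr3:57576029-57576058 on the minus strand with the hexamer 170 bases before the start. The Srf stretch, at chr17:46556215-46556244 on the minus strand, holds 2 CArG boxes at 82 and 62 bases before the start. Thus 5 of the 7 windows held a TEAD hexamer and 1 held a CArG box, compared with 12.6% and 1.47% of all 32851 RefSeq promoters of the same length. The genes were chosen by name, and Cyr61, Ankrd1 and Amotl2 are known YAP and TAZ targets. The comparison with all promoters therefore cannot be read as a finding about these genes. These are matches of letters and were not tested as binding sites. The Lats2 window held neither run of letters.

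The values are FPKM, that is fragments scaled by transcript length and by the mapped fragments of the library, and the read depth behind them is unknown. Each gene's level is the sum over its transcripts. Differences are siCNN3 minus siNC on the log2(FPKM + 1) scale, where low genes show smaller differences than their folds. Values per library are in the order of replicates 1, 2 and 3, which have no rank. Cnn3 read 62.8, 61.4 and 62.8 FPKM in the siNC libraries and 19.04, 39.2 and 25.6 FPKM in the siCNN3 libraries, or 44.8% of the siNC mean (log2 difference -1.19, adjusted p = 0.0669 from limma). Cnn3 was called in 1 of 14 alternatives, without siCNN3 replicate 2 (log2 difference -1.46, adjusted p = 0.0475 from limma). Of 9 muscle line markers, Des was at 117.2 ± 6.89 FPKM in siNC (SD, n = 3), while Myog and Ckm were at 2.18 ± 0.921 and 0.680 ± 0.251 FPKM (SD, n = 3). Of the 8 markers tested, 2 (Acta1 and Myh3) were called lower by limma, compared with 0.336% of all tested genes. Groups did not overlap for 7 of the 8, all lower in siCNN3, compared with 23.1% of all tested genes. At an unadjusted p below 0.05 from limma there were 7 of 8, compared with 16.1%. The summed level of the 9 markers was between 149.0 and 167.7 FPKM in siNC and between 104.5 and 118.3 FPKM in siCNN3. Des made up most of this sum, and Myf5, a myogenic factor of undifferentiated myoblasts, was the one tested marker above 0, reading 3.55, 5.64 and 4.84 FPKM in the siNC libraries and 12.95, 11.4 and 5.40 FPKM in the siCNN3 libraries (log2 difference 0.88, adjusted p = 0.238 from limma). In such bulk samples, fewer cells of a type and less RNA per cell cannot be told apart. Of 11 markers of blood, endothelial, fat and smooth muscle cells, 2 were listed (Cd68 and Lyz2), with sums between 4.72 and 10.2 FPKM in siNC and between 2.81 and 4.04 FPKM in siCNN3. The mean of 10 interferon response genes, relative to the siNC mean on the log2 scale, was -1.26, 1.44 and -0.18 in the siNC libraries and 5.12, 5.10 and 3.69 in the siCNN3 libraries. The part of muscle markers and of the interferon response in the values below was not tested. Of the 6 libraries, siNC replicate 2 and siCNN3 replicate 3 stood apart in several of the 10 genes, and the differences they move most are given with and without them.

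None of the 10 mechanosensing genes was called between siCNN3 and siNC, where 2.06% of the 11593 tested genes were (1.73% called higher and 0.336% called lower, limma with Benjamini-Hochberg adjustment over all tested genes, threshold 0.05). At an unadjusted p below 0.05 there were 2 of 10, Ctgf and Wwtr1, compared with 16.1% of all genes, and the same 2 genes had groups that did not overlap, compared with 23.1% of all genes. Both shares are near that background for a list of 10 genes. The median log2 difference was 0.04 over the 10 genes and 0.03 over all tested genes, and 6 of the 10 were above 0, compared with 54.0% of all genes. After quantile normalization both medians were at -0.05. A p above the threshold does not show that levels were equal, and the 95% intervals below give the range of differences that the 6 libraries allow.

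In siNC the 10 genes spanned from 1.33 to 300.4 FPKM, a scale per transcript length that allows levels to be compared between genes. From the highest mean to the lowest the order was Ankrd1, Cyr61, Wwtr1, Ctgf, Yap1, Amotl2, Tead1, Srf, Lats2 and Tead4. Each neighbour in this order overlapped the next in its siNC values, except that Tead4 lay below all values of Lats2. Ankrd1 stood at percentile 98.7 of the tested genes by mean level over the 6 libraries, Cyr61 at 97.5 and Ctgf at 93.0. Of the factors, Wwtr1 was at percentile 88.9, Yap1 at 73.8, Srf at 52.1, Tead1 at 49.3 and Tead4 at 10.3.

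**Figure D1:**
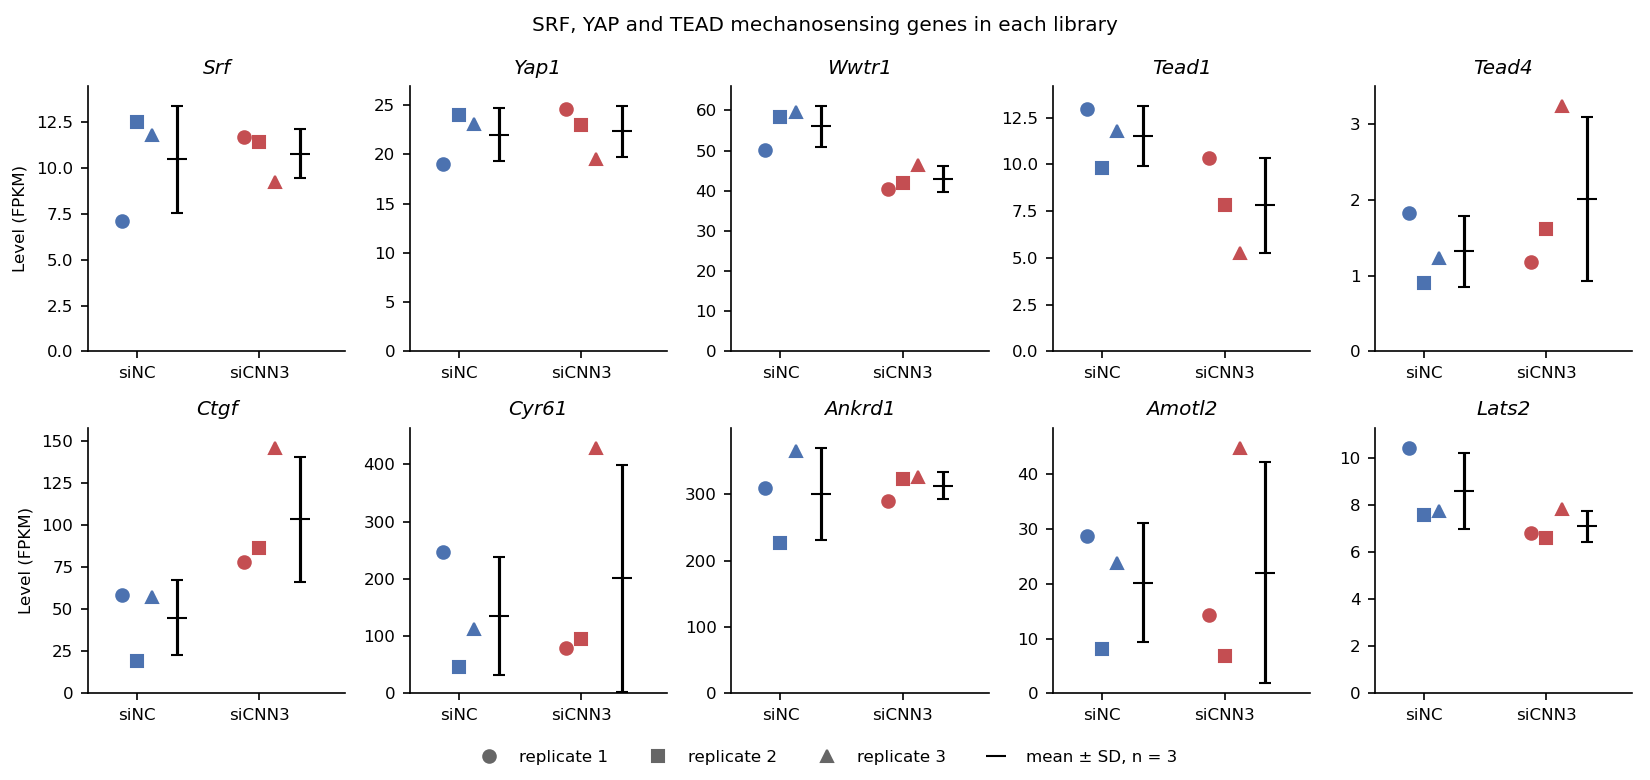
FPKM of each gene (vertical axis, from 0) in the siNC and siCNN3 libraries, with replicates 1 to 3 as separate symbols and the mean ± SD (n = 3) beside them. Groups do not overlap for Wwtr1 and Ctgf, and the spread within a group is widest for Cyr61 and Amotl2.

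Srf (chromosome 17 of GRCm38, 46548329 to 46556175) read 7.13, 12.5 and 11.8 FPKM in the siNC libraries and 11.7, 11.4 and 9.25 FPKM in the siCNN3 libraries. The groups overlapped, and siNC replicate 1 was the lowest library. Its siNC libraries averaged 10.5 ± 2.93 FPKM and its siCNN3 libraries 10.8 ± 1.33 FPKM (SD, n = 3), giving a log2 difference of 0.07 and a 95% interval from -0.46 to 0.60 (adjusted p = 0.916, limma).

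Next, the mRNAs of the coactivators YAP and TAZ were compared. Yap1 (chromosome 9, 7931999 to 8004596) read 18.96, 23.9 and 23.1 FPKM in the siNC libraries and 24.5, 22.97 and 19.5 FPKM in the siCNN3 libraries. The groups overlapped, and the log2 difference of 0.02 had a 95% interval from -0.33 to 0.37 (adjusted p = 0.959, limma). Wwtr1 (chromosome 3, 57455649 to 57575910) read 50.2, 58.3 and 59.7 FPKM in the siNC libraries and 40.4, 41.9 and 46.4 FPKM in the siCNN3 libraries. Every siCNN3 value lay below every siNC value. The siNC libraries averaged 56.0 ± 5.12 FPKM and the siCNN3 libraries 42.9 ± 3.15 FPKM (SD, n = 3), or 76.5% of siNC. Its log2 difference of -0.38, with a 95% interval from -0.66 to -0.09, was not called (adjusted p = 0.187, limma). Wwtr1 was also the least variable of the 10 genes, with a within-group SD of 0.119 on the log2 scale, at percentile 15.9 of the tested genes.

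As a share of the summed FPKM of Yap1 and Wwtr1, Yap1 made up 27.4%, 29.1% and 27.9% in siNC and 37.8%, 35.4% and 29.5% in siCNN3. All siCNN3 shares were above all siNC shares, although siCNN3 replicate 3 was close to siNC replicate 2. The mean share was 28.1% ± 0.879 in siNC and 34.3% ± 4.25 in siCNN3 (SD, n = 3). The two-sided exact permutation p was 0.1, the smallest that 3 libraries against 3 allow. A test of the share is not independent of the values of Yap1 and Wwtr1 given above.

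The deposited table lists 3 transcripts of Yap1, and those with exon 6 of Yap1-201 (Yap1-201 and Yap1-210) hold, unlike Yap1-202, a coding cassette exon of 48 bases, or 16 residues, at chr9:7950492-7950539 on the minus strand of GRCm38. It is shown because it is a part of the mRNA that Yap1-201 and Yap1-210 hold and Yap1-202 lacks. Yap1-210, at 1193 bases, is also shorter than Yap1-201 and Yap1-202, at 4171 and 4115 bases.
Yap1 cassette exon: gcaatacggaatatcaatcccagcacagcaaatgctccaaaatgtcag

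Transcripts with this exon made up 15.1%, 14.8% and 49.6% of Yap1 FPKM in siNC and 20.2%, 34.2% and 9.93% in siCNN3 (two-sided exact permutation p = 0.8), with a mean difference of -5.04 percentage points that was 0.717 without siCNN3 replicate 3 and -10.9 without siNC replicate 2. The share varied more between replicates than between groups, and siNC replicate 3 was the highest. Yap1-202, the form without the exon, read 16.1, 20.4 and 11.6 FPKM in the siNC libraries and 19.6, 15.1 and 17.5 FPKM in the siCNN3 libraries. Transcript values are estimates by the authors' program for forms that share most of their sequence.

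Of the TEAD factors, which bind DNA for YAP and TAZ, Tead1 (chromosome 7, 112679318 to 112906807) read 12.99, 9.82 and 11.8 FPKM in the siNC libraries and 10.3, 7.80 and 5.28 FPKM in the siCNN3 libraries. The groups overlapped at siNC replicate 2 and siCNN3 replicate 1. The siNC libraries averaged 11.5 ± 1.60 FPKM and the siCNN3 libraries 7.81 ± 2.53 FPKM (SD, n = 3), or 67.7% of siNC, with a log2 difference of -0.54 and a 95% interval from -1.10 to 0.02 (adjusted p = 0.325, limma). It was -0.32 without siCNN3 replicate 3, the lowest library. Tead4 (chromosome 6, 128224288 to 128300823), a TEAD gene that is active in differentiating muscle cells, read 1.83, 0.902 and 1.24 FPKM in the siNC libraries and 1.19, 1.62 and 3.25 FPKM in the siCNN3 libraries. Of its siCNN3 libraries, replicate 3 alone was above the siNC range, and at these low levels the log2 difference of 0.34 had a 95% interval from -0.34 to 1.02 (adjusted p = 0.608, limma). Without that library it was 0.06, and -0.07 when siNC replicate 2 was also left out.

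As shares of the summed FPKM of Tead1 to Tead4, Tead1 took 55.1%, 46.1% and 52.4% in siNC and 48.1%, 40.3% and 25.7% in siCNN3. The Tead1 share was 51.2% ± 4.62 in siNC and 38.1% ± 11.4 in siCNN3 (SD, n = 3, two-sided exact permutation p = 0.2). That of Tead4 was 7.77%, 4.24% and 5.50% in siNC and 5.53%, 8.35% and 15.8% in siCNN3. The Tead4 share was 5.84% ± 1.79 in siNC and 9.90% ± 5.32 in siCNN3 (SD, n = 3, two-sided exact permutation p = 0.2). Without siCNN3 replicate 3 the Tead4 shares differed by 1.10 percentage points in place of 4.06, and the Tead1 shares by -6.98 in place of -13.1. With siNC replicate 2 also left out, the Tead4 shares differed by 0.301 and the Tead1 shares by -9.52 percentage points. Tead1 had 7 listed transcripts, and 6 of them were tested, with log2 differences between -1.02 for Tead1-210 and 0.41 for Tead1-201 (adjusted p = 0.455 and 0.766, limma over transcripts). Tead1-207, the most abundant by mean, was at -0.43 (adjusted p = 0.802), while Tead1-201 held 56.9% of Tead1 FPKM in siCNN3 replicate 3.

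**Figure D2:**
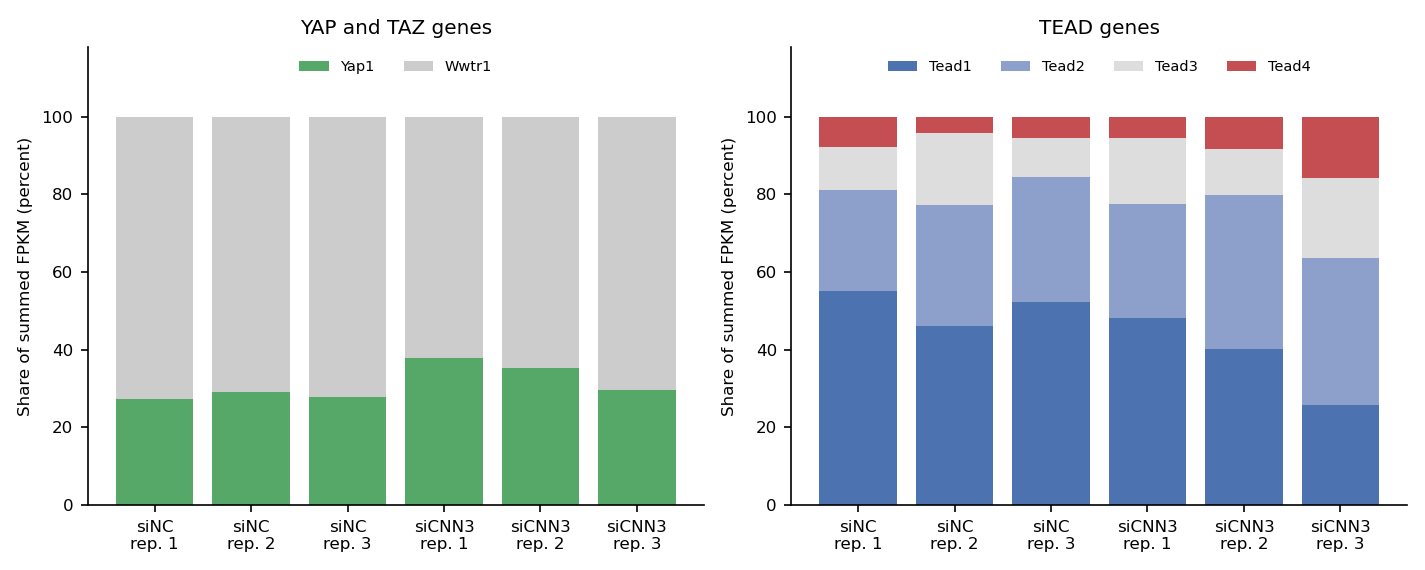
Share of summed FPKM in percent (vertical axis) in each of the 6 libraries, for Yap1 and Wwtr1 at left and for Tead1 to Tead4 at right. The Yap1 share is between 27.4% and 29.1% in siNC and between 29.5% and 37.8% in siCNN3, and the Tead4 share is highest, at 15.8%, in siCNN3 replicate 3.

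Lats2 encodes a kinase that inhibits YAP and TAZ and is itself one of their target genes, and Amotl2 encodes an angiomotin-like protein that binds and retains YAP and is also a target. Lats2 (chromosome 14, 57689662 to 57758388) read 10.4, 7.56 and 7.76 FPKM in the siNC libraries and 6.81, 6.60 and 7.83 FPKM in the siCNN3 libraries. The groups overlapped only through siCNN3 replicate 3, and the log2 difference of -0.24 had a 95% interval from -0.63 to 0.16 (adjusted p = 0.535, limma). It was -0.10 without siNC replicate 1, the highest library. Amotl2 (chromosome 9, 102716672 to 102733418) read 28.8, 8.06 and 23.9 FPKM in the siNC libraries and 14.4, 6.78 and 44.9 FPKM in the siCNN3 libraries. Its siNC and siCNN3 values were interleaved, with a ratio of highest to lowest library of 3.57 in siNC and 6.62 in siCNN3. The log2 difference of Amotl2 was -0.10 with a 95% interval from -1.77 to 1.58 (adjusted p = 0.963, limma), and with 1 library left out it was between -0.79 (without siCNN3 replicate 3) and 0.49 (without siCNN3 replicate 2).

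Ctgf, Cyr61 and Ankrd1 are the targets most used as readouts of YAP and TAZ activity. Ctgf and Cyr61 encode secreted matricellular proteins of the CCN family, and Ankrd1 encodes a muscle ankyrin repeat protein found in the sarcomere and the nucleus. Ctgf (chromosome 10, 24595442 to 24598683) read 58.3, 19.1 and 57.1 FPKM in the siNC libraries and 78.1, 86.3 and 146.1 FPKM in the siCNN3 libraries. Every siCNN3 library lay above every siNC library, with siNC replicate 2 and siCNN3 replicate 3 at the extremes. The siNC libraries averaged 44.8 ± 22.3 FPKM and the siCNN3 libraries 103.5 ± 37.1 FPKM (SD, n = 3), or 230.7% of siNC. The log2 difference of 1.29, with a standard error of 0.454 and a 95% interval from 0.21 to 2.37, was not called (adjusted p = 0.230, limma). It was 0.78 without siNC replicate 2 and 1.02 without siCNN3 replicate 3, and 0.50 without both.

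Cyr61 (chromosome 3, 145646976 to 145649981), whose promoter holds the hexamer shown above, read 247.7, 45.7 and 111.7 FPKM in the siNC libraries and 78.8, 94.9 and 429.0 FPKM in the siCNN3 libraries. The highest and lowest libraries of each group differed 5.42-fold in siNC and 5.44-fold in siCNN3, and the groups overlapped. The log2 difference was 0.44 with a 95% interval from -1.44 to 2.33 (adjusted p = 0.825, limma), and with 1 library left out it was between -0.32 (without siCNN3 replicate 3) and 1.03 (without siNC replicate 1). It was -0.17 without siNC replicate 2, 0.89 without siCNN3 replicate 1 and 0.76 without siCNN3 replicate 2. Ankrd1 (chromosome 19, 36111961 to 36120099), with 2 hexamers in its window, read 309.0, 226.6 and 365.4 FPKM in the siNC libraries and 289.4, 323.3 and 325.8 FPKM in the siCNN3 libraries. All siCNN3 values of Ankrd1 lay inside the siNC range. Its siNC libraries averaged 300.4 ± 69.8 FPKM and its siCNN3 libraries 312.8 ± 20.3 FPKM (SD, n = 3), giving a log2 difference of 0.08 and a 95% interval from -0.34 to 0.51 (adjusted p = 0.853, limma).

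**Figure D3:**
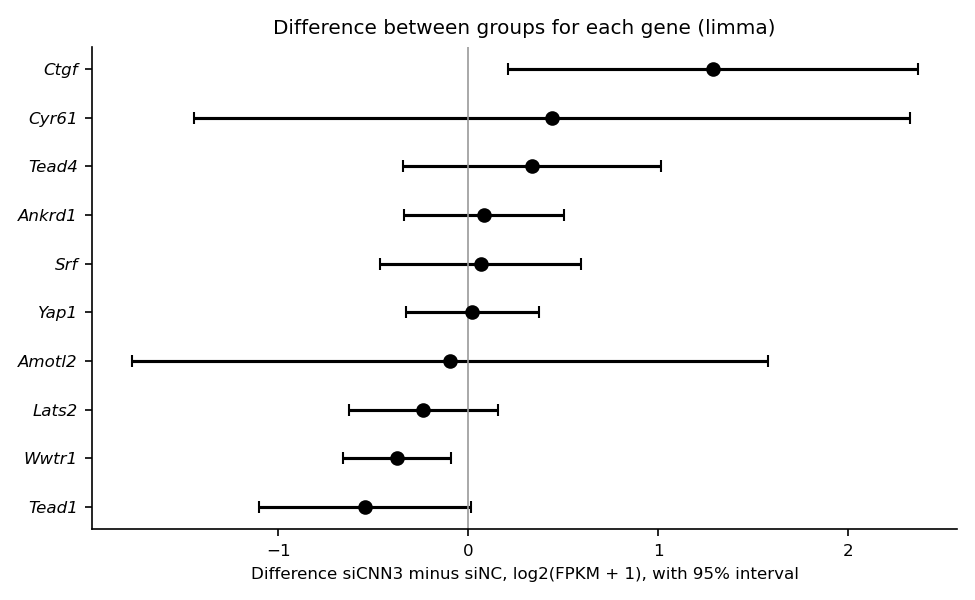
Difference between groups (horizontal axis, siCNN3 minus siNC on the log2(FPKM + 1) scale, point) with its 95% interval from limma (bar) for each of the 10 genes. The intervals of Ctgf (0.21 to 2.37) and Wwtr1 (-0.66 to -0.09) do not include 0 before adjustment over all genes, and those of Cyr61 and Amotl2 are the widest.

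The 10 genes differed widely in how closely replicates matched. The within-group SD on the log2 scale was 1.27 for Cyr61, 1.12 for Amotl2 and 0.716 for Ctgf, above that of 99.6%, 99.3% and 96.1% of tested genes, whose median was 0.230. For Ankrd1 it was 0.256, for Lats2 0.183 and for Yap1 0.169, close to or below that median. Thus 3 of the targets varied between libraries of the same group by more than nearly all genes.

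For several of the genes the extremes lay in the same libraries. Relative to the siNC mean on the log2 scale, siNC replicate 2 was at -1.03 for Ctgf, -1.23 for Cyr61 and -1.06 for Amotl2, and siCNN3 replicate 3 was at 1.84, 1.97 and 1.28. For Amotl2, siCNN3 replicate 2 was also low, at -1.28. In 6 of the 10 genes (Tead4, Ctgf, Cyr61, Ankrd1, Amotl2 and Lats2) siNC replicate 2 was the lowest siNC library and siCNN3 replicate 3 the highest siCNN3 library, a pattern that 19.8% of all tested genes had. This pair was chosen after the values were seen, and genes of one library are not independent. For 2 of the 6 genes the order rested on small margins. Ankrd1 read 325.8 FPKM in siCNN3 replicate 3 and 323.3 FPKM in siCNN3 replicate 2. Lats2 read 7.56 FPKM in siNC replicate 2 and 7.76 FPKM in siNC replicate 3. Over all tested genes, the deviations of siNC replicate 2 and siCNN3 replicate 3 from their group means had a correlation of -0.445 across genes, which share the library. The same libraries also differed in the interferon response genes, whose mean was highest among siNC in replicate 2 and lowest among siCNN3 in replicate 3. Without both libraries, the log2 difference of Cyr61 was -0.94, that of Amotl2 -1.32 and that of Ctgf 0.50, with 0 of the 10 genes called.

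**Figure D4:**
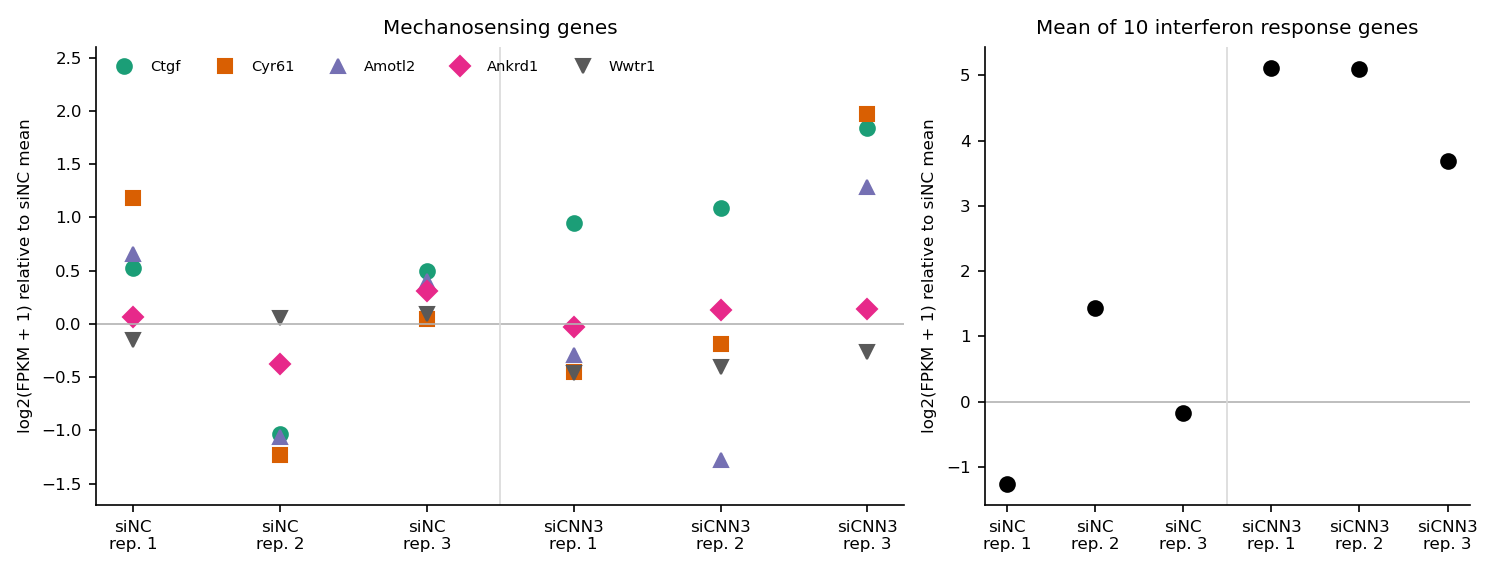
Value in each library on the log2(FPKM + 1) scale relative to the siNC mean (vertical axes), for 5 of the genes at left and for the mean of 10 interferon response genes at right. Ctgf, Cyr61 and Amotl2 are low in siNC replicate 2 and high in siCNN3 replicate 3, where the interferon genes go the other way within each group.

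The ratio of Ctgf to Cyr61 FPKM, a pair often read together, was 0.235, 0.418 and 0.511 in siNC and 0.990, 0.910 and 0.341 in siCNN3. The siCNN3 libraries were split, with replicates 1 and 2 above all siNC libraries and replicate 3 inside their range (two-sided exact permutation p = 0.3).

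At the level of single transcripts, 24 of 27 listed transcripts of the 10 genes were tested and 0 were called by limma, where 0.54% of 21658 tested transcripts were. At an unadjusted p below 0.05 there were 3 of 24, near the 10.7% of all tested transcripts. These were Wwtr1-201, the main Wwtr1 transcript, with a log2 difference of -0.37 (adjusted p = 0.260), Tead1-210, and the first transcript of Ctgf (Ccn2-201), with a log2 difference of 1.29 (adjusted p = 0.420).

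The other genes of the pathways were taken from lists, whose counts are descriptions to be read against all tested genes, of which 2.06% were called, 16.1% had an unadjusted p below 0.05, 23.1% had groups that did not overlap and 54.0% were above 0. Among 18 Hippo kinases and adaptors, not all of which inhibit YAP and TAZ, 0 were called (limma), 5 had an unadjusted p below 0.05, 6 had groups that did not overlap (2 higher and 4 lower in siCNN3), and the median log2 difference was -0.02. The members with the largest differences were Limd1, a LIM protein that inhibits LATS kinases, and Amot, an angiomotin that binds YAP like Amotl2. Limd1 read 10.9, 9.35 and 12.2 FPKM in the siNC libraries and 2.25, 2.90 and 10.8 FPKM in the siCNN3 libraries. Its siCNN3 replicate 3 lay within the siNC range and the other siCNN3 libraries far below it (log2 difference -1.15, adjusted p = 0.294, limma), and it was called without that library (log2 difference -1.72, adjusted p = 0.00676, limma), where 605 genes in all were called in place of 239. Amot read 15.4, 23.05 and 19.3 FPKM in the siNC libraries and 11.7, 12.9 and 10.9 FPKM in the siCNN3 libraries, with all siCNN3 values lower (log2 difference -0.65, adjusted p = 0.122, limma, and called after quantile normalization, adjusted p = 0.0460). Of the remaining TEAD genes and their VGLL cofactors, 4 were tested and 0 called by limma, 0 of them at an unadjusted p below 0.05. Vgll3 had a log2 difference of 0.20 and Tead3 of 0.16 (adjusted p = 0.524 and 0.796, limma).

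Of 16 other YAP and TAZ target genes, 2 were called higher and 0 lower, 5 had an unadjusted p below 0.05, 5 had groups that did not overlap (2 higher and 3 lower), 9 were above 0, and the median log2 difference was 0.06. The called genes were Axl, a receptor tyrosine kinase gene, and Gadd45a, a stress response gene that p53 and ATF4 also regulate. Axl read 111.7, 114.9 and 121.0 FPKM in the siNC libraries and 167.5, 168.5 and 179.4 FPKM in the siCNN3 libraries (log2 difference 0.56, standard error 0.092, adjusted p = 0.0349, limma). Gadd45a read 136.0, 113.1 and 103.1 FPKM in the siNC libraries and 201.4, 175.6 and 210.4 FPKM in the siCNN3 libraries (log2 difference 0.74, standard error 0.136, adjusted p = 0.0499, limma). The groups of both genes did not overlap, but their calls were lost in 8 (Axl) and 13 (Gadd45a) of 14 alternatives, over which the log2 difference was between 0.45 and 0.60 for Axl and between 0.60 and 0.85 for Gadd45a. The relatives of the CCN and ankyrin repeat genes had 4 tested members and 0 calls by limma, 1 of them (Ccn5) at an unadjusted p below 0.05. Ccn5 had a log2 difference of 0.86 (adjusted p = 0.130, limma) and Ccn3 of -0.54 (adjusted p = 0.383, limma), beside 1.29 for Ctgf.

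For SRF, 5 cofactors were tested and 0 were called by limma, 0 of them at an unadjusted p below 0.05, with log2 differences of -0.35 for Mrtfb and -0.29 for Elk3 (adjusted p = 0.360 and 0.524). The targets of SRF were described in groups, beside a log2 difference of 0.07 for Srf itself. Of 22 cytoskeletal targets of SRF and MRTF, 1 was called higher and 0 lower, 6 had an unadjusted p below 0.05, 7 had groups that did not overlap (2 higher and 5 lower), 17 were below 0, and the median log2 difference was -0.18. The gene called was Fhl2, a LIM protein gene, which read 26.6, 26.5 and 31.6 FPKM in the siNC libraries and 44.0, 48.4 and 52.0 FPKM in the siCNN3 libraries (log2 difference 0.75, standard error 0.126, adjusted p = 0.0403, limma), a call lost in 9 of 14 alternatives, over all of which the log2 difference was between 0.65 and 0.83. Acta2, smooth muscle actin, read 233.5, 391.1 and 397.3 FPKM in the siNC libraries and 190.6, 206.2 and 185.4 FPKM in the siCNN3 libraries (log2 difference -0.77, adjusted p = 0.132, limma, and called without siNC replicate 1, adjusted p = 0.0276).

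Of 10 immediate early targets, which SRF drives with ternary complex factors, 1 was called higher and 0 lower, 5 had an unadjusted p below 0.05, 4 had groups that did not overlap (all higher), 9 were above 0, and the median log2 difference was 0.59. Ier2, the gene called, read 19.8, 16.5 and 13.9 FPKM in the siNC libraries and 33.7, 32.0 and 49.1 FPKM in the siCNN3 libraries (log2 difference 1.14, standard error 0.206, adjusted p = 0.0494, limma), a call lost in 12 of 14 alternatives, over all of which the log2 difference was between 0.94 and 1.26. The transcription factor gene Egr2 read 2.45, 4.31 and 1.62 FPKM in the siNC libraries and 10.1, 14.0 and 33.7 FPKM in the siCNN3 libraries (log2 difference 2.31, adjusted p = 0.0604, limma, and called without siCNN3 replicate 3, adjusted p = 0.0383). Egr1 read 52.3, 17.5 and 21.3 FPKM in the siNC libraries and 73.1, 71.3 and 137.7 FPKM in the siCNN3 libraries (log2 difference 1.69, adjusted p = 0.116, limma). Ier2, Egr1 and Egr2 were highest in siCNN3 replicate 3, as were Ctgf, Cyr61 and Amotl2. Of the sarcomeric targets, Acta1, skeletal muscle actin, was the one tested and fell, from 24.6, 33.8 and 26.9 FPKM in siNC to 5.37, 5.35 and 6.43 FPKM in siCNN3 (log2 difference -2.12, standard error 0.161, adjusted p = 0.00473, limma). Acta1 is also one of the muscle markers above.

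**Figure D5:**
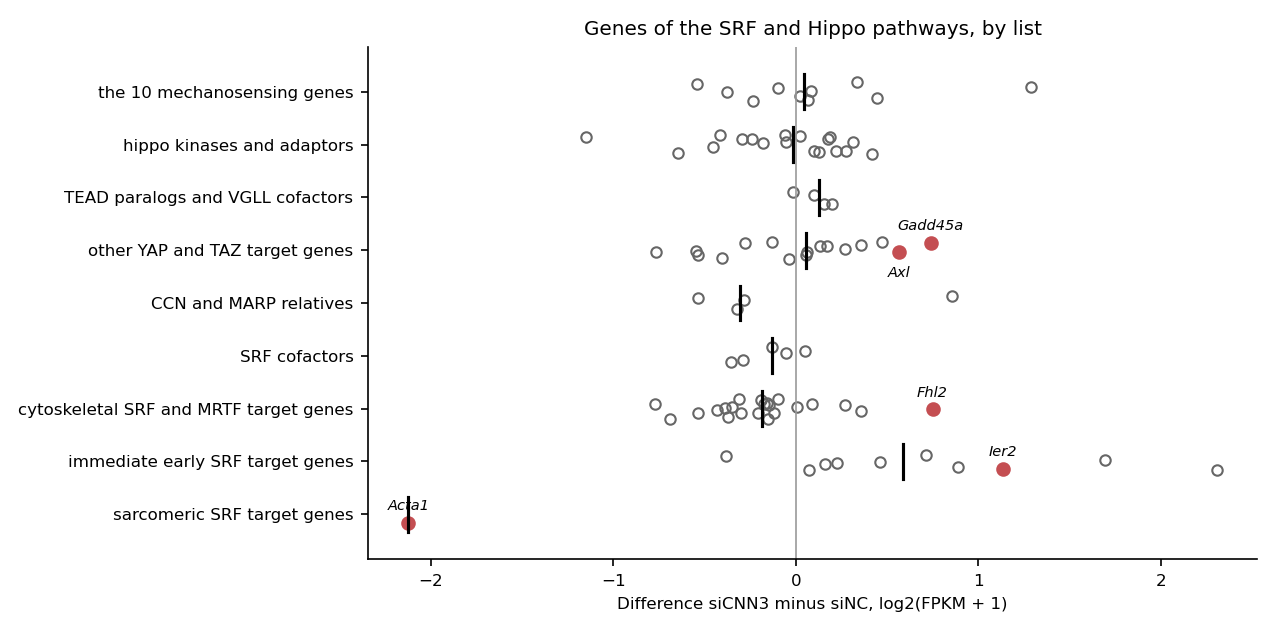
Difference between groups (horizontal axis, siCNN3 minus siNC on the log2(FPKM + 1) scale) for every tested gene of each list, with called genes filled and named and a vertical line at the list's median. The 10 mechanosensing genes have a median of 0.04, the immediate early targets of SRF 0.59 and the cytoskeletal targets -0.18, and the filled points are Axl, Gadd45a, Fhl2, Ier2 and Acta1.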

How the data were processed

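RNA of 3 siNC and 3 siCNN3 libraries of C2C12 cells was sequenced, and the authors deposited FPKM for 24023 Ensembl transcripts per library. The submitters' processing notes name Bowtie 0.12.2 and the builds mm10 and mm8 without saying what each was used for, and the program that estimated FPKM is not given in the sources used here. Read numbers are unknown, so no counting error can be given, and a value of 0 can be a failed estimate. Total FPKM was between 322621 and 355591 per library.

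Identifiers were matched without version to GENCODE annotation of GRCm38 (23949 of 24023, the other 74 holding between 0.159% and 0.220% of FPKM), and FPKM were summed over the transcripts of each of 11835 genes. Coordinates are those of that annotation. Genes averaging 0.5 FPKM or more were fitted as log2(FPKM + 1) with limma 3.58.1 in R 4.3.3 (mean-variance trend, Benjamini-Hochberg adjustment over 11593 genes, threshold 0.05, 95% intervals). The paper describes enrichment analyses of the sequencing data and states no test of single genes. The fit was tested on simulated data. Shares were compared by two-sided exact permutation tests, which cannot give a p below 0.1. Alternatives were a pseudocount of 0.1, no filter or 5 FPKM, median-of-ratios scaling, quantile normalization, no trend, the replicate number as a block, each transcript alone and each library left out. Tables and figures used Python 3.11.15, with scipy 1.17.1, matplotlib 3.10.9, numpy 2.4.6 and pandas 2.3.3.

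The 10 genes and the gene lists were chosen with earlier results of these data known. Named genes are the 10 genes, Cnn3, every called gene of a list and, with fewer than 2 calls, its 2 largest differences. Promoters are RefSeq sequences.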

Additional observations from a re-analysis of the deposited data

How the results depend on the processing

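None of the 10 mechanosensing genes was called in any of the 15 alternatives (Tead4 was not tested at 5 FPKM), and Wwtr1, Tead1, Lats2 and Ctgf kept their direction in all of them (log2 difference between -0.47 and -0.33 for Wwtr1, -0.75 and -0.32 for Tead1, -0.38 and -0.049 for Lats2, and 0.50 and 1.55 for Ctgf). In the alternative by transcript, each gene was read from its most abundant transcript alone, and Tead1-201 went the other way (0.41). Genes with differences near 0 changed sign with scalings that moved the median of all genes from 0.03 to -0.0018 (median-of-ratios) and -0.045 (quantile). Yap1 was at -0.013 under median-of-ratios scaling, and under quantile normalization Yap1 was at -0.078, Srf at -0.0028 and Ankrd1 at -0.017. With 1 library left out, or with siNC replicate 2 and siCNN3 replicate 3 left out together (added after seeing the data), the range was -0.17 to 0.30 for Srf, -0.077 to 0.17 for Yap1, -0.075 to 0.54 for Tead4, -1.32 to 0.49 for Amotl2, -0.94 to 1.03 for Cyr61 and -0.14 to 0.24 for Ankrd1. The cause of the changes with libraries left out was not tested. The Yap1 and Tead4 shares kept their direction in 8 of 8 alternatives, which did not include leaving out both libraries. Without siNC replicate 2 and siCNN3 replicate 3, the Tead4 shares differed by 0.301 percentage points in place of 4.06. The Yap1 shares then differed by 8.96 percentage points in place of 6.12.

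The number of genes called among all tested was 239, compared with 117 transcripts of 21658 when each transcript was tested on its own, 848 genes without those 2 libraries, and 20 to 605 with 1 library left out. Of all calls 200 were higher and 39 lower, compared with 219 and 63 under median-of-ratios scaling and 199 and 93 after quantile normalization. With the replicate number as a replicate block, 68 genes were called. Same-numbered libraries did not all deviate together (correlations across genes of -0.278, 0.314 and -0.025 for numbers 1, 2 and 3), and siNC replicate 1 correlated best with siCNN3 replicate 3 (0.442), so the number is no evidence of pairing. Of the called genes in the SRF and YAP lists, Acta1 was called in 14 of 14 alternatives, while Axl was lost in 8, Fhl2 in 9, Ier2 in 12 and Gadd45a in 13, all with their direction kept. For the list genes and Cnn3, the 14 alternatives included leaving out siNC replicate 2 and siCNN3 replicate 3 together. The fit of each transcript alone was not among them. The calls of Myh3 and of the interferon genes were not examined this way.

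The unknown depth limits what can be said of Tead4, the least abundant of the genes, and 3 libraries in each group leave wide intervals for Cyr61 and Amotl2.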
